A study of Mus musculus with 6 samples.

Results

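The 43 genes described here encode the machinery of DNA replication and S phase: origin recognition and licensing proteins, the replicative helicase, polymerases, the sliding clamp and its loader, nucleotide enzymes, chromatin proteins of the fork and the E-type cyclins. They were chosen by gene symbol from a written list, and all 43 were found among the 26264 genes of the count table. The RNA came from cultured spinal cord neural stem cells of the C57BL6J background, kept with EGF and FGF2 and separated by flow cytometry on a PDGFRaGFP transgenic reporter. There were 3 libraries of GFP-positive cells (genotype label PDGFRaGFP/+) and 3 of GFP-negative cells (genotype label PDGFRaGFP/-). Whether that label means an allele or the sorted colour, how the transgene is driven, and whether cells of several animals were pooled are not stated; the series title calls the cells adult. The stated question was how oligodendrocytes and their precursors, which carry the PDGF receptor encoded by Pdgfra, are produced.

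Before S phase, the origin recognition complex, Cdc6 and Cdt1 load the Mcm2-7 ring onto DNA. Cdc45 and the GINS complex then join the ring to form the running helicase, polymerase alpha-primase starts each strand, and the clamp loader, the clamp and polymerases delta and epsilon extend it. Many of these genes are transcribed under E2F factors around entry into S phase, and neural stem cells and oligodendrocyte precursors can both divide in culture.

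The promoters of 4 members show the E2F element and its absence. The 200 bases before the RefSeq start site are given 5′ to 3′ on the gene's strand (build GRCm38.p6, whereas the counts were made on mm39), in lower case with matches to TTTCCCGC, TTTCGCGC, TTTGCCGC or TTTGGCGC on either strand in capitals. Mcm5 and Mcm6 are shown for their overlapping matches, Mcm7 as the member called higher in GFP-positive cells, and Rpa1 as the member of largest fold change.
Mcm5 (chr8:75109309-75109508, plus strand): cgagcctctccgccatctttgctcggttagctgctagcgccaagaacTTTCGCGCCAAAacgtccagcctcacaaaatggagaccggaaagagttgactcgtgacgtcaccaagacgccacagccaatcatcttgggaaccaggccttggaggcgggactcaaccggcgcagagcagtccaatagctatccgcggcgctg
Mcm6 (chr1:128359706-128359905, minus strand): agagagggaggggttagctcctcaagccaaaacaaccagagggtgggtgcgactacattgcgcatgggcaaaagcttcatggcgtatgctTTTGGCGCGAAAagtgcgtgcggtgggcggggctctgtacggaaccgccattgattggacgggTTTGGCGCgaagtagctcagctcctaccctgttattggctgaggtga
Mcm7 (chr5:138171267-138171466, minus strand): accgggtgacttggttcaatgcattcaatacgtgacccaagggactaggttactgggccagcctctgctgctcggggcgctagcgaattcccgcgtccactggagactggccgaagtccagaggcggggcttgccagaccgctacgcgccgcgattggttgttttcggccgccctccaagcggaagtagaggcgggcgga
Rpa1 (chr11:75348384-75348583, minus strand): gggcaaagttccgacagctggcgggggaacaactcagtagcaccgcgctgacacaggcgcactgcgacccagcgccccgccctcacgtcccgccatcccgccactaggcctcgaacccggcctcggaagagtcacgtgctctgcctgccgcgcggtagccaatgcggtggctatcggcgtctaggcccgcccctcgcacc
Of the 43 members, 35 had a RefSeq promoter. In windows from 250 bases before to 50 bases after the start, 13 of the 35 held a match (37.1%), against 2.6% of the 27025 genes in the table. Mcm7 had its 2 matches around another listed start and 0 in the stretch printed. Between the fractions, 3 of the 13 members with a match were called different (Mcm7, Pold1 and Uhrf1) and 5 of the 22 without. Of all tested genes, 55.4% were called. A match is a run of letters and not a measured site.

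Transcript levels of most replication genes differed little between the fractions. In GFP-positive cells, 1 member was called higher (Mcm7) and 9 lower (Gins2, Pcna, Rfc1, Rfc2, Rpa1, Rpa3, Pold1, Tk1 and Uhrf1), at an edgeR adjusted p below 0.05. All 43 had passed the filter on low counts. The 10 calls are 23.3% of the members, where 55.4% of the 14554 tested genes were called. By direction, 2.33% of members were higher and 20.9% lower, against 26.1% and 29.2% of all genes. These shares of all genes also stand beside the counts by complex and by marker list below. The median log2 fold change, GFP-positive minus GFP-negative, was -0.01 for the members and for all genes alike. Its median size without sign was 0.11 for the members and 0.36 for all genes, and the members ran from -0.78 to 0.37.

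The 95% interval of the fold change stayed within 1 log2 unit of zero for all 43 members and for 66.1% of all genes. It stayed within 0.5 for 29 members (67.4%) and for 37.5% of all genes. Members and all genes were not matched for expression level, so the part of level in these comparisons was not tested. Of the 33 members that were not called, 26 had intervals within 0.5 of zero, and the widest bounds of any were -0.64 (Ccne1) and 0.61 (Gins3). The libraries of the 2 fractions did not overlap for 11 members (25.6%), namely the 10 called and Prim1, where 64.2% of all genes did not overlap. These values are in CPM, read counts per 1000000 of a TMM-scaled library, which corrects for composition, and values of a group are given in the order of replicates 1, 2 and 3.

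**Figure D1:**
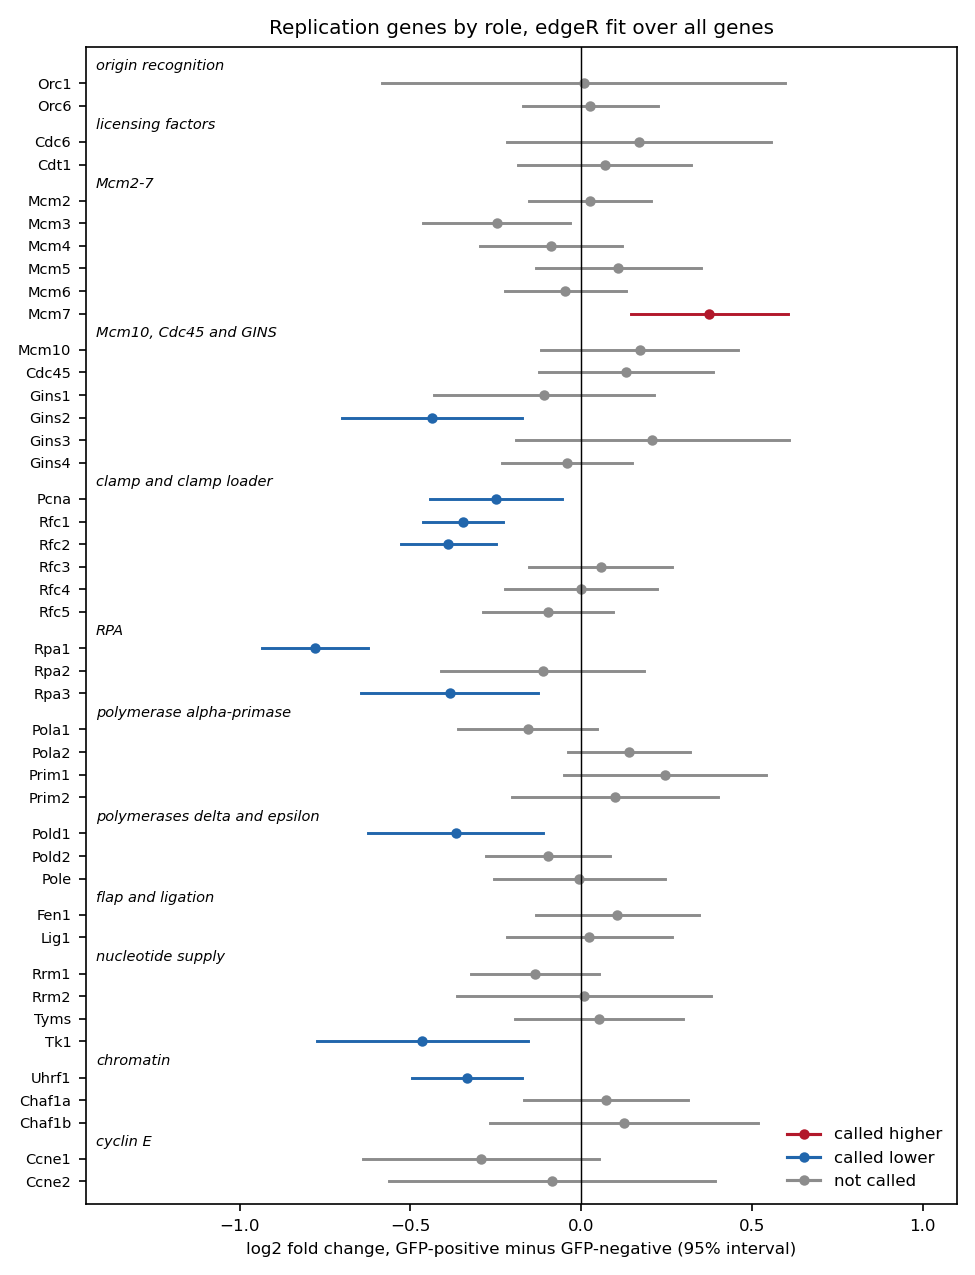
Log2 fold change (x axis, GFP-positive minus GFP-negative) of each of the 43 members with its 95% interval, ordered by role, coloured by call at an adjusted p below 0.05. Rpa1 at -0.78 lies farthest from zero and Mcm7 at 0.37 is the member called higher.

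The libraries held 31067850 to 45207335 counts, and a member had 66 to 6967 counts in a library, under 100 only for Orc1. Pdgfra, the gene that the sorted reporter is named for, read 205 to 245 CPM in GFP-positive and 8.04 to 19.3 CPM in GFP-negative libraries. All 8 oligodendrocyte precursor markers listed were called higher in GFP-positive cells, and 7 of 8 neural stem cell and 7 of 7 astrocyte markers lower. Summed neural stem cell markers still reached 1969 to 2213 CPM in GFP-positive libraries, against 7301 to 7934. All 3 neuron markers tested (Rbfox3, Snap25 and Syt1) were also called higher, with the 6 listed summing to 32.4 to 39.8 CPM against 7.31 to 13.4. Mbp, a marker of mature oligodendrocytes, was called higher, and the ependymal marker Foxj1, the endothelial Flt1 and the fibroblast Col1a1 were called lower. The 6 microglial markers summed to at most 0.272 CPM anywhere. In bulk RNA, fewer cells of a type and less RNA per cell cannot be told apart, and the part of cell makeup in the results below was not tested.

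None of the 4 listed members of origin recognition and licensing (Orc1, Orc6, Cdc6 and Cdt1) passed the test. Orc6, a subunit of the origin recognition complex, read 26.0, 24.8 and 23.4 CPM in the GFP-positive libraries against 23.1, 26.5 and 23.3 in the GFP-negative ones. The groups overlapped, with a log2 fold change of 0.03, SE 0.09 and edgeR adjusted p = 0.808. Orc1, its ATPase subunit, was the scarcest member, at 3.24, 2.56 and 1.80 CPM with GFP and 2.46, 2.93 and 2.17 without. Its GFP-positive libraries spread more widely than its GFP-negative ones, and the fold change was 0.01. Cdc6, the ATPase that loads the ring, read 12.2, 13.1 and 11.9 CPM in the GFP-positive libraries against 10.8, 13.8 and 8.46 in the GFP-negative ones. The GFP-negative values lay on both sides of the others, with a log2 fold change of 0.17, SE 0.17 and edgeR adjusted p = 0.422. Cdt1, its partner, had a fold change of 0.07 on the log2 scale.

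Within the Mcm2-7 ring, Mcm7 was called higher in GFP-positive cells and the other 5 subunits were not called. Mcm7 read 153, 154 and 160.1 CPM in the GFP-positive libraries against 120.3, 138 and 102 in the GFP-negative ones. Every GFP-positive value exceeded the GFP-negative ones, with a log2 fold change of 0.37, SE 0.10 and edgeR adjusted p = 0.0130, or 1.30-fold. Its call was lost without replicate 1 (0.0840) or replicate 3 (0.0750), adjusted p in brackets. Mcm3, another subunit, read 59.8, 72.0 and 67.1 CPM in the GFP-positive libraries against 82.7, 83.4 and 69.9 in the GFP-negative ones. The groups overlapped narrowly, and it missed the threshold with a log2 fold change of -0.25, SE 0.09 and edgeR adjusted p = 0.0520. With the replicate number as a block its adjusted p was 0.0317, and it passed without replicate 2 (0.0484), GFP-negative replicate 3 (0.0204) or GFP-positive replicate 2 (0.0457). Mcm3 also passed with upper-quartile scaling (edgeR adjusted p = 0.0379), a filter of 1 CPM in 3 libraries (0.0472) or DESeq2 (DESeq2 adjusted p = 0.0463). Mcm2, Mcm4, Mcm5 and Mcm6 had log2 fold changes of 0.02, -0.09, 0.11 and -0.05.

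Ratios of counts inside a library do not depend on scaling. There were 2.56, 2.14 and 2.39 Mcm7 counts per Mcm3 count in GFP-positive replicates 1, 2 and 3, and 1.45, 1.65 and 1.46 in the GFP-negative replicates. The pair was picked for its difference, so it is described and not tested. Per kilobase of transcript, Mcm7 was 30.7% ± 0.459 of the summed ring in GFP-positive and 24.7% ± 0.980 in GFP-negative libraries (SD, n = 3). Mcm3 was 12.7% ± 0.981 and 15.9% ± 0.538 of it. Mcm7 overlaps Ap4m1 on the opposite strand over 10.8% of its transcript, and Ap4m1 was not called, at a fold change of 0.07. It also overlaps Cops6 on the opposite strand over 2.16%, and Cops6 was called lower (log2 fold change -0.19, edgeR adjusted p = 0.0232).

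Of Mcm10, Cdc45 and the GINS subunits, which turn the ring into a helicase, 1 of 6 was called. Gins2, a GINS subunit, read 8.88, 9.60 and 9.76 CPM in the GFP-positive libraries against 13.5, 13.6 and 11.1 in the GFP-negative ones. The groups were apart, with a log2 fold change of -0.44, SE 0.11 and edgeR adjusted p = 0.0120, and the call was lost without replicate 1 (0.142) or GFP-positive replicate 1 (0.0540). Its transcript overlaps Gse1 on the opposite strand over 70.7% of its length, and Gse1 was called higher (0.38), so reads of the pair may be mixed. Gins1, Gins3 and Gins4 had log2 fold changes of -0.11, 0.21 and -0.04. Log2 fold changes of Mcm10, a helicase activator, and Cdc45 were 0.17 and 0.13.

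RPA, the complex that coats unwound DNA, held the member with the largest difference. Rpa1, the large DNA-binding subunit, read 43.9, 49.7 and 46.9 CPM in the GFP-positive libraries against 82.4, 76.1 and 82.9 in the GFP-negative ones. The groups lay far apart for their spread, with a log2 fold change of -0.78, SE 0.07 and edgeR adjusted p = 4.39e-05, or 0.582-fold. This call was kept in all 9 fits that omitted libraries. Rpa3, the smallest subunit, read 8.99, 8.15 and 7.48 CPM in the GFP-positive libraries against 11.3, 10.1 and 10.7 in the GFP-negative ones. The groups were apart, with a log2 fold change of -0.38, SE 0.11 and edgeR adjusted p = 0.0195, but the call was lost without replicate 1 (0.0838), replicate 3 (0.158), GFP-negative replicate 1 (0.0682), GFP-positive replicate 2 (0.0586) or GFP-positive replicate 3 (0.0827). Rpa2, the third subunit, read 14.0, 14.1 and 12.7 CPM with GFP and 13.5, 17.6 and 13.1 without, which overlapped, and had a fold change of -0.11. Rpa2 counts per Rpa1 count were 0.319, 0.284 and 0.270 in GFP-positive and 0.164, 0.231 and 0.158 in GFP-negative replicates. This pair too was picked for its difference, so it is described and not tested.

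In the clamp and clamp loader, 3 of 6 genes were called lower, where 29.2% of all tested genes were. Rfc1, the large loader subunit, read 85.8, 83.2 and 86.8 CPM in the GFP-positive libraries against 112, 105 and 109 in the GFP-negative ones, with a log2 fold change of -0.34, SE 0.05 and edgeR adjusted p = 6.93e-04. Rfc2, a small loader subunit, read 29.5, 30.2 and 29.1 CPM in the GFP-positive libraries against 38.9, 39.5 and 38.0 in the GFP-negative ones, with a log2 fold change of -0.39, SE 0.06 and edgeR adjusted p = 9.13e-04. Both had tight, separate groups, and both calls were kept in all 9 fits with libraries omitted. Rfc3, Rfc4 and Rfc5, the other small subunits, were not called, at log2 fold changes of 0.06, -0.00 and -0.10. Rfc2 overlaps Lat2 on the opposite strand over 19.1% of its transcript, and Lat2 was called higher (0.84). Pcna, the sliding clamp, read 72.0, 78.6 and 76.2 CPM in the GFP-positive libraries against 92.6, 97.9 and 79.1 in the GFP-negative ones. Its groups nearly met, with a log2 fold change of -0.25, SE 0.08 and edgeR adjusted p = 0.0342. The call was lost without replicate 1 (0.259), replicate 2 (0.0698), GFP-negative replicate 1 (0.0972), GFP-negative replicate 2 (0.0783), GFP-positive replicate 1 (0.141), GFP-positive replicate 2 (0.0612) or GFP-positive replicate 3 (0.0876), and after removal of length and GC trends (0.216 and 0.246).

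**Figure D2:**
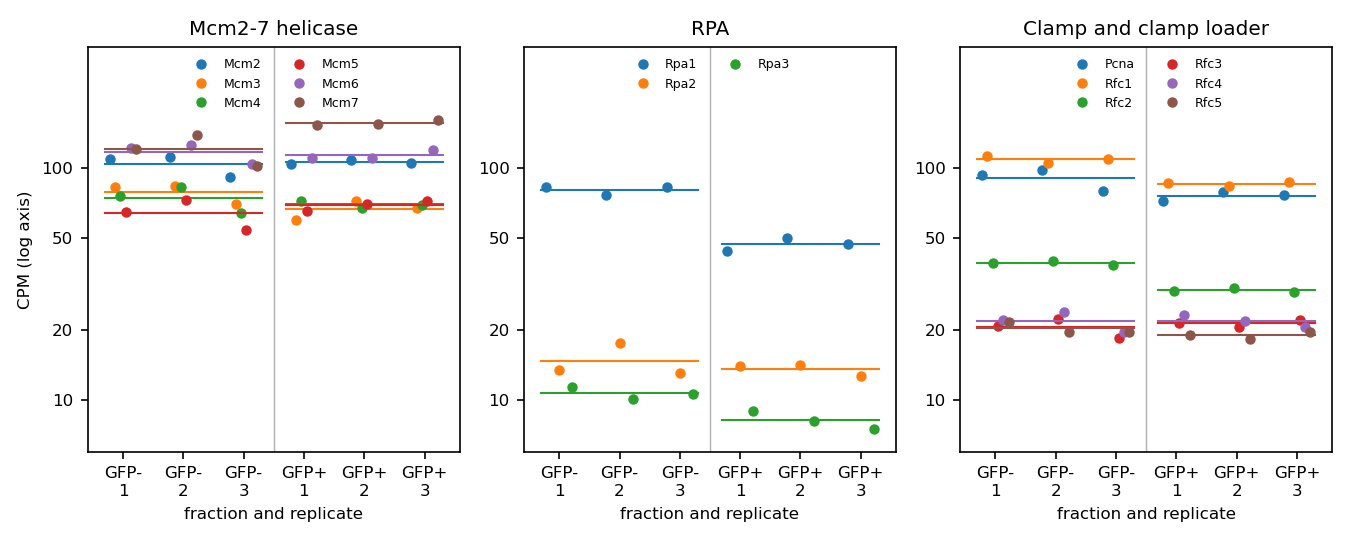
CPM on a log axis for the Mcm2-7 ring, RPA, and the clamp with its loader; points are single libraries and lines are group means (n = 3). Mcm7 lies higher in GFP-positive libraries, Rpa1, Rfc1 and Rfc2 lie lower, and Rpa2, Rfc3 and Rfc4 overlap.

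Polymerase alpha-primase had 0 of 4 genes called. Prim1, the catalytic primase subunit, read 24.5, 24.0 and 23.6 CPM in the GFP-positive libraries against 21.4, 23.2 and 16.2 in the GFP-negative ones. The groups were apart by a small margin, but the log2 fold change of 0.24, SE 0.13 and edgeR adjusted p = 0.139 missed the threshold. Pola1, Pola2 and Prim2, the other subunits, had log2 fold changes of -0.16, 0.14 and 0.10. Pola1 was called lower with length and GC trends removed (edgeR adjusted p = 0.0190 and 0.0221) or without GFP-negative replicate 3 (0.0170). Pold1, the catalytic subunit of polymerase delta, read 28.5, 35.7 and 31.0 CPM in the GFP-positive libraries against 40.9, 45.7 and 36.3 in the GFP-negative ones. Its groups were apart, with a log2 fold change of -0.37, SE 0.11 and edgeR adjusted p = 0.0222, and the call was lost without replicate 1 (0.163), replicate 3 (0.0603), GFP-negative replicate 1 (0.0525), GFP-positive replicate 1 (0.0971) or GFP-positive replicate 3 (0.0746). Pold2, of the same polymerase, and Pole, the catalytic subunit of polymerase epsilon, were not called, at log2 fold changes of -0.10 and -0.01.

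Neither gene of flap removal and ligation was called. Fen1, the flap nuclease, read 27.3, 28.5 and 26.4 CPM in the GFP-positive libraries against 25.3, 28.9 and 22.1 in the GFP-negative ones, which overlapped, with a log2 fold change of 0.11, SE 0.10 and edgeR adjusted p = 0.414. Gm10143 lies opposite 80.4% of its transcript. Lig1, which seals Okazaki fragments, had a log2 fold change of 0.02. For nucleotide supply, Tk1, the thymidine salvage kinase, read 8.64, 8.96 and 8.62 CPM in the GFP-positive libraries against 13.3, 13.0 and 9.82 in the GFP-negative ones. The groups were apart, with a log2 fold change of -0.47, SE 0.13 and edgeR adjusted p = 0.0180. The call was lost without replicate 1 (0.167), replicate 2 (0.0585), GFP-negative replicate 1 (0.0668), GFP-positive replicate 1 (0.0644) or GFP-positive replicate 3 (0.0599), and after removal of length and GC trends (0.0724 and 0.0790). Rrm1 and Rrm2, of ribonucleotide reductase, and Tyms, which makes thymidylate, were not called, at log2 fold changes of -0.13, 0.01 and 0.05.

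Uhrf1, which recruits maintenance DNA methylation to copied DNA, was the chromatin gene called. It read 49.9, 55.3 and 53.7 CPM in the GFP-positive libraries against 66.8, 71.2 and 62.4 in the GFP-negative ones. The groups were apart, with a log2 fold change of -0.33, SE 0.07 and edgeR adjusted p = 0.00419, and the call was lost without replicate 1 (0.0604). Chaf1a and Chaf1b, of the histone chaperone CAF-1, had log2 fold changes of 0.07 and 0.12. Ubxn6, which was not called, lies opposite 48.6% of the Chaf1a transcript. Ccne1, an E-type cyclin of the G1 to S transition, read 6.43, 7.95 and 5.58 CPM in the GFP-positive libraries against 8.13, 8.45 and 7.91 in the GFP-negative ones. The groups overlapped narrowly, with a log2 fold change of -0.29, SE 0.15 and edgeR adjusted p = 0.131. Ccne1 was called lower without replicate 2 (edgeR adjusted p = 0.0473) or GFP-positive replicate 2 (0.0389). Ccne2, its paralog, had a log2 fold change of -0.09. Ints8, which was called higher (log2 fold change 0.22), lies opposite 20.3% of the Ccne2 transcript.

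The members varied together inside the GFP-negative group. In 34 of 43 (79.1%), GFP-negative replicate 2 was the highest and replicate 3 the lowest of that group, an order seen in 19.1% of all tested genes. Replicate 2 over replicate 3 was a median 1.25 for the members and 0.996 for all genes. The members took 0.186%, 0.203% and 0.163% of counts in GFP-negative replicates 1, 2 and 3 and 0.169%, 0.178% and 0.175% in the GFP-positive ones, so the GFP-negative values lay on both sides. The median SD within a group, on log2 CPM, was 0.17 without GFP and 0.07 with it for the members, and 0.14 and 0.10 for all genes. The other 9 members were Orc6, Gins3, Gins4, Rfc1, Rfc5, Rpa1, Rpa3, Pold2 and Tk1, of which Rfc1, Rfc5, Rpa1 and Rpa3 were lowest of that group in replicate 2.

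The count of calls moved with these libraries. Without GFP-negative replicate 2, 7 members were called higher (Cdc6, Mcm5, Mcm7, Mcm10, Pola2, Prim1 and Prim2) and 8 lower, and the list's median was 0.08 in log2 units. When GFP-negative replicate 3 was omitted, 1 was higher and 11 lower, and that median was -0.09. Omitting GFP-negative replicate 1, GFP-positive replicate 1 or GFP-positive replicate 3 left 5 lower in each case. Without both libraries of replicate 1, 0 were higher and 3 lower (Rfc1, Rfc2 and Rpa1). Without both of replicate 2, 3 were higher and 9 lower, and without both of replicate 3, 0 were higher and 7 lower. The share of all genes called moved too, from 55.4% in the main fit to 39.3%, 56.9% and 36.8% without replicates 1, 2 and 3. It was 48.7%, 58.2% and 48.3% without GFP-negative replicates 1, 2 and 3, and 47.1% and 46.3% without GFP-positive replicates 1 and 3. What sets these libraries apart was not tested.

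**Figure D3:**
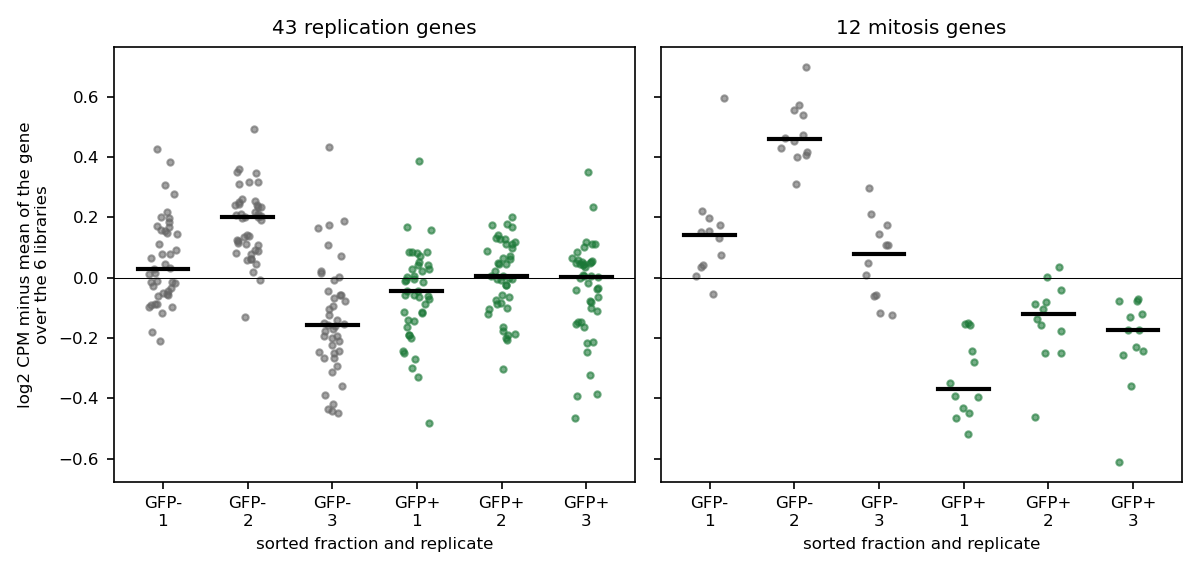
Deviation of log2 CPM from each gene's mean over the 6 libraries (y axis) for the 43 members and 12 mitosis genes, by library; points are genes and bars are medians. Member medians are 0.20 in GFP-negative replicate 2 and -0.16 in replicate 3, while mitosis medians are above zero in the GFP-negative libraries and below zero in the GFP-positive ones.

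Of 12 mitosis genes listed for comparison, 8 (66.7%) were called lower in GFP-positive cells and 0 higher, with a median log2 fold change of -0.44. Of all tested genes, 29.2% were called lower and 26.1% higher. With the replicate block 9 were called lower, and when both libraries of replicate 1 were omitted, 5 were. In those fits 57.3% and 39.3% of all genes were called in either direction. Ccnb2, a cyclin of mitosis, averaged 20.4 ± 1.05 CPM with GFP and 42.9 ± 6.03 without (SD, n = 3), with a log2 fold change of -1.07, SE 0.11 and edgeR adjusted p = 1.01e-04. Cdk1, its kinase, and Cenpf, of the kinetochore, fell by 0.57 and 0.64 on the log2 scale. In 11 of the 12, GFP-negative replicate 2 was again highest and replicate 3 lowest of that group. The difference between the lists was not tested.

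Of 74 further replication genes, 72 were tested, since Atrip and Chtf8 are listed at 0 in every library. In GFP-positive cells 13 were called higher and 10 lower (31.9%), where 55.4% of all tested genes were called. Their median log2 fold change was 0.00. These counts were 8 and 4 when both libraries of replicate 1 were omitted, and 5 and 3 when those of replicate 3 were. Of all genes, 39.3% and 36.8% were called in those fits. Leaving out GFP-positive replicate 1 alone gave 12 and 6, and leaving out GFP-negative replicate 2 alone gave 19 and 9. Of all genes, 47.1% and 58.2% were called in these 2 fits. Among origin genes, Orc4 was higher by 0.20 in log2 units, Wdhd1, which links polymerase alpha to the helicase, was higher by 0.44, and Mtbp, a factor of origin firing, fell by 0.66. Pole2 and Pole3, small subunits of polymerase epsilon, fell by 0.45 and 0.27. Atr, the checkpoint kinase, was higher by 0.20, and Atad5, which unloads the clamp, by 0.39. Rnaseh2b, of the nuclease that removes RNA from DNA, was higher by 0.52 and Top1, a topoisomerase, by 0.24. Ctps, which makes CTP, and Cad, of pyrimidine synthesis, were higher by 0.54 and 0.25. Nasp, a histone chaperone, was higher by 0.36 and Rbbp7, a histone-binding protein, fell by 0.33. Mtbp, Rnaseh2b, Ctps, Nasp and Rbbp7 kept their calls under every alternative.

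The other calls just named were less stable; numbers in brackets are edgeR adjusted p unless named otherwise. With length and GC trends removed, Atr had log2 fold changes of -0.00069 and 0.0069 (edgeR adjusted p = 0.992 and 0.917), so neither its call nor its size was kept. The calls of Orc4, Pole3, Atad5 and Cad were lost there too, at adjusted p from 0.0539 to 0.221. Orc4 also lost its call without replicate 1 (log2 fold change 0.17) and without replicate 3 (0.146), GFP-negative replicate 1 (0.0682), GFP-positive replicate 1 (0.0501) or GFP-positive replicate 3 (0.0718). Wdhd1 lost its call without replicate 1 (0.0674) or replicate 3 (0.0525). Pole2 lost it without replicate 1 (0.107), replicate 2 (0.0630), replicate 3 (0.0982) or GFP-positive replicate 1 (0.0580). Pole3 lost it without replicate 1 (0.345), replicate 3 (0.0848), GFP-negative replicate 1 (0.136), GFP-negative replicate 3 (0.0809), GFP-positive replicate 1 (0.161) or GFP-positive replicate 2 (0.109), and with no filter on low counts (0.0548). Atr lost it without replicate 1 (0.142), replicate 3 (0.160), GFP-negative replicate 1 (0.0649) or GFP-positive replicate 3 (0.0755), and Atad5 without replicate 1 (0.0859), replicate 3 (0.123) or GFP-negative replicate 1 (0.0529). Top1 and Cad lost theirs without replicate 3 (0.0753 and 0.0771).

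Of the 13 E2F and pocket protein genes, 3 were called higher and 3 lower (46.2%), where 55.4% of all tested genes were called. E2f3 (higher) and E2f6 (lower) lost their calls without replicate 1 (edgeR adjusted p = 0.0839 and 0.0649) or replicate 3 (0.0782 and 0.0589). Rbl2 (lower) lost its call without replicate 1 (0.160) or replicate 3 (0.286), among other fits. E2f5, an E2F factor that works with pocket proteins, averaged 18.4 ± 0.840 CPM with GFP and 33.5 ± 0.137 without (SD, n = 3), with a log2 fold change of -0.86, SE 0.07 and edgeR adjusted p = 3.29e-05. Tfdp2, a dimer partner of E2F factors, averaged 74.2 ± 2.27 and 55.6 ± 1.19 CPM (SD, n = 3), with a log2 fold change of 0.42, SE 0.05 and edgeR adjusted p = 3.41e-04.

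**Figure D4:**
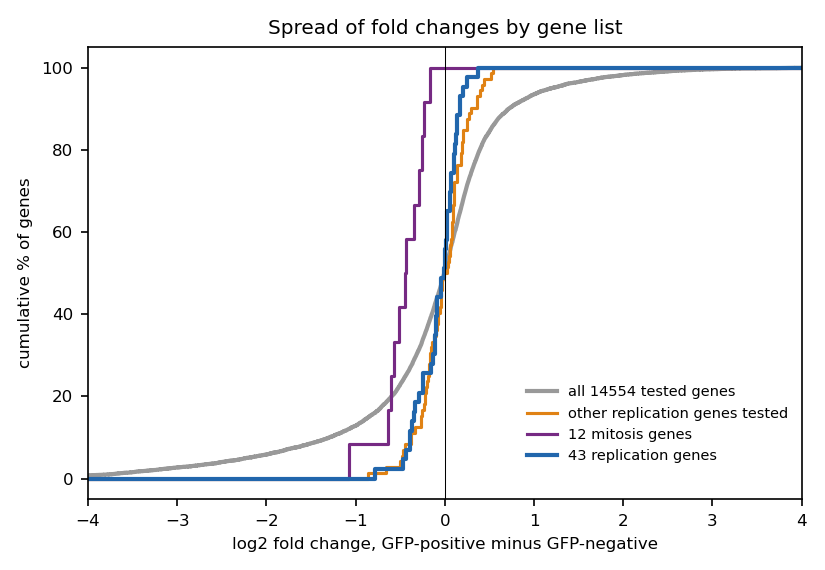
Cumulative share of genes (y axis, %) by log2 fold change (x axis) for all tested genes, the 72 further replication genes tested, the 12 mitosis genes and the 43 members. The members lie between -0.78 and 0.37, and every mitosis gene lies below zero.

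Per kilobase of transcript, Pcna stood at 59.2 CPM in GFP-negative and 49.8 in GFP-positive libraries and Mcm7 at 40.5 and 52.6, so the member ranked highest was Pcna in the former and Mcm7 in the latter. Rrm1, Mcm2 and Rrm2 came next in both, between 29.6 and 32.5 CPM per kilobase, without separating beyond their spread in GFP-negative libraries. Gins3 and Orc1 were lowest in both, at 1.93 and 0.840 in GFP-positive libraries. Rpa1 ranked 17 of 43 without GFP and 24 with it.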

How the data were processed

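Sequencing libraries used Takara's stranded SMART-Seq chemistry, per the labels' protocols. The submitters' processing notes name TopHat2 2.1.1, SAMtools 1.9, featureCounts 2.0.0 and mm39. Which annotation and strand setting were used is not given in these sources. The authors deposited unnormalized whole-number counts for each gene, judged from the values. In GENCODE M21, 14 of the 43 members overlap a gene on the opposite strand.

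Counts were tested with edgeR 4.0.16 in R 4.3.3 (TMM, filterByExpr, quasi-likelihood F test, Benjamini-Hochberg over 14554 genes, threshold 0.05), after the code was tested on simulated data. The SE is the fold change over the square root of F. Lengths are of the longest coding transcript in GENCODE M21. At the lowest member count the counting error was 12.3%.

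The members and all lists were chosen with earlier results of these data known. All members are named, with library values for those called and for the largest change in each role. Elsewhere the 2 called genes of smallest p in each further replication group and 3 mitosis genes are named. Library values of Orc1, Mcm3 and Rpa2, and the names Atrip, Chtf8, E2f3, E2f6 and Rbl2, were added after values were seen.

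Replicate numbers come from the titles, which do not say if they mark animals or cultures, so p-values reflect spread among these libraries, possibly technical. Same-numbered libraries deviated together (correlations 0.271, 0.433 and 0.233, each above 0.1), and the numbers were read as pairs. GFP-positive replicate 3 also correlated at 0.177 with a GFP-negative library of another number. The main fit and its p-values are unpaired, and pairs enter only in the replicate block and where both libraries of a number were omitted. No library repeated another (chi-square per degree of freedom 9.83 to 34.2). Alternatives were RLE, upper-quartile and centred scaling, 2 other filters, DESeq2 1.42.0, limma 3.58.1 voom, the replicate block, omitted libraries and, chosen after seeing the data, removal of length and GC trends (96.7% of genes matched).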

Additional observations from a re-analysis of the deposited data

How the results depend on the processing

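Rpa1, Rfc1 and Rfc2 were called under all 19 alternatives run. Of 817 values of single members under the alternatives, 696 kept sign and call, 31 lost the call, 21 gained it, and 69, from 20 members that were not called, had the other sign without a call. When single libraries or both of a number were omitted, members called higher ranged from 0 to 7 and members called lower from 3 to 11, other replication genes from 5 to 19 higher and 3 to 13 lower, and all genes from 2450 to 4169 higher and 2951 to 4468 lower; the members' median log2 fold change ran from -0.10 to 0.08. Fits without a number have 4 libraries. Under the other alternatives 1 member was called higher, except with the length and GC trend removed and each library centred at 0, where 2 were (Mcm7 and Pola2; the cause was not tested), and 8 to 10 were called lower. With the replicate block 1 member was higher and 10 lower, 13 and 11 of the other replication genes, and 9 mitosis genes lower; Mcm3 was the member whose call it changed. Atr lost its call with that trend removed, at -0.00069 (the cause was not tested). The median of all genes lay between -0.03 and 0.00 under every setting. Orc1, at as few as 66 counts, is limited most by depth.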
